A study of Homo sapiens with 10 samples.

Results

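Sites of RNA polymerase I were set against H3K9me3 heterochromatin in HCT116, a human cell line established from a colorectal carcinoma. The members were the peaks called for POLR1A, the largest catalytic subunit of RNA polymerase I, and the peaks called for histone H3 trimethylated at lysine 9 (H3K9me3), on chromosomes 1 to 22 and X. There were 3812 POLR1A peaks and 16414 H3K9me3 peaks, among 59094 peaks in the lists of all 4 targets on all contigs. The lists were compared in bins of 1 Mb, by distance from the ends of chromosomes, and by the distance between summits where peaks of both lists shared at least 1 bp.

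CUT&Tag was used, in which an antibody tethers a transposase to chromatin and the enzyme inserts adapters near the bound protein. Untreated wild-type HCT116 cells gave 3 samples for POLR1A, 3 for H3K9me3, 3 for POLR2A, the corresponding subunit of RNA polymerase II, and 1 for the promoter mark H3K4me3. Between 100000 and 200000 cells entered each replicate, and the labels name no animal, donor or clone. Each target had 1 peak list that names no replicate, so no difference below has a replicate check and none was tested. Intervals are exact 95% intervals and cover counting error only.

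RNA polymerase I transcribes the precursor of the large ribosomal RNAs, and most of the enzyme resides in the nucleolus. H3K9me3 is written by methyltransferases such as SUV39H1, SUV39H2 and SETDB1 and is read by heterochromatin protein 1. It is known for its place at satellite repeats near centromeres, at repeats near telomeres and over clusters of KRAB zinc finger genes, and the silent copies of the ribosomal DNA carry it as well.

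The promoters below are single examples of windows that touched both lists, POLR1A alone or H3K9me3 alone. They do not stand for the lists as a whole. Of POLR1A peaks that overlapped H3K9me3, 21.5% lay at an end of a protein-coding gene. Of H3K9me3 peaks without POLR1A, 1.68% did. Each is the 250 bases before a RefSeq gene start (GRCh38.p14), 5′ to 3′ on the gene's strand, with CG dinucleotides in capitals. SRGAP2 (chr1:206203291-206203540, plus strand), DKKL1 (chr19:49363627-49363876, plus strand) and ORC6 (chr16:46689409-46689658, plus strand) had the highest POLR1A fold enrichments among windows that touched peaks of both lists. BRD3OS (chr9:134025231-134025480, plus strand) had the highest among windows with POLR1A and no H3K9me3. LOC124904606 (chr19:382300-382549, plus strand), with H3K9me3 and no peak of the other lists, was the next highest of its class and was chosen after its letters were seen, because a short unit recurs along it. The highest of that class, FAM27E4, is not printed. It had H3K9me3 at a fold enrichment of 17.6, a GC content of 65.6% and 26 CG dinucleotides.
SRGAP2: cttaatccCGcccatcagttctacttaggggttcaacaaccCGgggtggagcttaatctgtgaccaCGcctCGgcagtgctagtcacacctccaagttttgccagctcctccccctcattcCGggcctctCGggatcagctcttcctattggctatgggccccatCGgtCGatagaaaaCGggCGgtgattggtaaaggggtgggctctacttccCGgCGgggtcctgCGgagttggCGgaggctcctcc
DKKL1: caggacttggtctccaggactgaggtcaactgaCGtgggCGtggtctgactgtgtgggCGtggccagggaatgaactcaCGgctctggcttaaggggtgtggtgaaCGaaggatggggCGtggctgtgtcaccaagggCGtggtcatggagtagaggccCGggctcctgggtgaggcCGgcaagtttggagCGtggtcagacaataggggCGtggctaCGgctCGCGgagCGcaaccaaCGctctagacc
ORC6: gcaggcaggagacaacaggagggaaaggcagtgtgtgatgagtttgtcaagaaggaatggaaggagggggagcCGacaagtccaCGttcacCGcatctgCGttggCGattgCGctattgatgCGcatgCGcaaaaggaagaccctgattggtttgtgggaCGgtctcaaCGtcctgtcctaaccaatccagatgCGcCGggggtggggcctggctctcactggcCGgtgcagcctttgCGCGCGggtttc
BRD3OS: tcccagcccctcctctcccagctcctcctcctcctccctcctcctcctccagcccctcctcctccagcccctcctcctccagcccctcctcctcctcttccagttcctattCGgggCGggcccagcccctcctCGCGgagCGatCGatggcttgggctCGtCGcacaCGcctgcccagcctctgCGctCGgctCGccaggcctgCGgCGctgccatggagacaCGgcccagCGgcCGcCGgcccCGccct
LOC124904606: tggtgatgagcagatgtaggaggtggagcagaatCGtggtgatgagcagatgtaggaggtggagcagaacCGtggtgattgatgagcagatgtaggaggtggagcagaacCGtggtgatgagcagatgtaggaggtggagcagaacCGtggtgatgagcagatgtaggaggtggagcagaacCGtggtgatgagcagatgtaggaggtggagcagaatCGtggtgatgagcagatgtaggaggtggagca

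SRGAP2 encodes a GTPase-activating protein, and its window carried POLR1A at a fold enrichment of 13.9 and H3K9me3 at 4.91. Fold enrichment is the authors' ratio of peak signal to background, and it is comparable only within 1 list. The gene belongs to a duplicated family, so the source of reads at this window is uncertain. At DKKL1 the fold enrichments were 12.7 for POLR1A and 6.17 for H3K9me3. ORC6, which encodes a subunit of the origin recognition complex, had 12.1 for POLR1A and 4.40 for H3K9me3. All 3 windows also carried POLR2A (25.6, 25.6 and 18.1) and H3K4me3 (13.9, 7.29 and 10.96). BRD3OS had a POLR1A fold enrichment of 22.4 without H3K9me3, and LOC124904606 had H3K9me3 at 8.76.

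Over 34789 distinct promoter windows, 173 touched both POLR1A and H3K9me3 (0.497%), 1982 POLR1A without H3K9me3 and 191 H3K9me3 without POLR1A. Windows with both were promoters by the other lists too: 98.8% carried POLR2A and 100% H3K4me3. Windows with POLR1A alone of the pair were close to this, at 96.4% and 97.8%. Windows with H3K9me3 alone of the pair carried POLR2A in 46.6% and H3K4me3 in 49.2% of cases, against 24.5% and 34.8% of all windows. In base composition the windows with both had a median GC content of 60.0% and 17 CG dinucleotides. Those with POLR1A alone had 64.4% and 21, those with H3K9me3 alone 57.6% and 14, and all windows 58.0% and 11. The telomere repeat unit TTAGGG, searched on both strands, occurred in 9.25% of windows with both, 9.33% with POLR1A alone, 10.5% with H3K9me3 alone and 7.93% of all windows.

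The lists differed in length and breadth. POLR1A peaks had a median width of 290 bp and covered 0.0433% of the 2964 Mb span, and H3K9me3 peaks had a median width of 496 bp and covered 0.320% of it. Read depth cannot be had from peak lists. Peaks at the same place can also come from different cells or alleles, which cannot be told apart here. As a check of the labelled cell type, POLR2A lay at an end of 9 of 12 colorectal epithelium genes (EPCAM 12.5, SOX9 16.2 in fold enrichment) and H3K4me3 at 10 of 12. CDX1 and VIL1 had neither, and POLR1A and H3K9me3 lay at 0 of the 12. Of genes of other cell types, POLR2A was found at 1 of 6 leukocyte, 0 of 6 fibroblast and 2 of 4 neural markers. The neural markers were RBFOX3, SYT1, SNAP25 and the astrocyte gene GFAP, and the 2 with POLR2A were RBFOX3 and SYT1. H3K4me3 was found at 0 leukocyte, 1 fibroblast and 1 neural marker. No share over all genes by the same rule stands beside these counts, which limits them as a check. By another rule, 24.5% of all promoter windows carried POLR2A and 34.8% carried H3K4me3.

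Of the POLR1A peaks, 595 (15.6%, interval 14.5 to 16.8) overlapped H3K9me3, and these are called on H3K9me3 below. Of the H3K9me3 peaks, 564 (3.44%, interval 3.16 to 3.73) overlapped POLR1A. Both shares moved with the peaks kept. With only the strongest H3K9me3 peaks, as many as there are POLR1A peaks, they were 9.10% and 8.45%, and with peaks of −log10 q of at least 5 in both lists they were 18.5% and 6.31%. For comparison, 71.7% of POLR1A peaks overlapped POLR2A and 65.8% overlapped H3K4me3. Of POLR2A peaks 3.53%, and of H3K4me3 peaks 2.36%, overlapped H3K9me3. The POLR1A and H3K9me3 peaks that overlapped formed 596 pairs, and in 326 of these the POLR1A peak lay wholly inside the H3K9me3 peak. At the edge of the definition, the pairs with the least overlap shared 1, 1 and 8 bases, with POLR1A fold enrichments of 10.8, 4.43 and 4.08. The nearest pairs that did not overlap were 1, 23 and 26 bases apart, with POLR1A fold enrichments of 4.71, 11.5 and 7.58.

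The median distance of all POLR1A summits to the nearest H3K9me3 summit was 67.5 kb, and 59.9% had one within 100 kb, against 88.2 kb and 53.8% for all POLR2A summits. For the 3217 POLR1A peaks off H3K9me3 alone it was 92.5 kb and 52.5%. In the other direction, the median H3K9me3 summit lay 498 kb from the nearest POLR1A summit, in a list with fewer peaks.

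At the scale of 1 Mb, POLR1A counts followed H3K9me3 counts weakly or not at all over all bins. Over 2979 bins the Spearman correlation of the 2 counts was 0.04 and Pearson r was 0.12. For POLR1A and POLR2A in the same bins the Spearman correlation was 0.68 and r was 0.72, and for POLR2A and H3K9me3 they were -0.06 and -0.03. Bins are not replicates, and all lists share the same assembly and cells, so these are descriptions. Within chromosomes the Spearman correlation ran between -0.29 on chromosome 14 and 0.34 on chromosome 21, with a median of -0.05, and was positive on 9 of 23. Pearson r within chromosomes ran between -0.22 on chromosome 14 and 0.52 on chromosome 21. In classes of bins with like POLR2A counts the Spearman correlation lay between 0.03 and 0.12, and Pearson r between 0.09 and 0.36.

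A POLR1A peak occurred in 51.5% of all bins and an H3K9me3 peak in 92.4%. Both were present in 1464 bins, POLR1A alone of the pair in 71, H3K9me3 alone in 1290, and neither in 154. POLR1A was found in 53.2% of bins with H3K9me3 and in 31.6% of bins without it. Bins without H3K9me3 also averaged fewer POLR2A peaks, 3.6, against 6.95 in bins with 1 or 2 H3K9me3 peaks. The 225 bins without H3K9me3 include bins with no peak in any list, such as a long run of them on chromosome 1. Such bins lower the 31.6%, and they were kept in the shares and correlations reported over all bins. Bins without any POLR1A peak held 8034 H3K9me3 peaks (48.9% of the list), while an overlapping pair occurred in only 361 bins.

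The densest H3K9me3 bins stood apart in the mean number of POLR1A peaks but not in the median. The mean number of POLR1A peaks was 1.18 in bins with 1 to 2 H3K9me3 peaks, 1.36 with 3 to 5, 1.296 with 6 to 10 and 1.40 with 11 to 20. In the 52 bins with more than 20 H3K9me3 peaks it was 3.13. Their POLR2A mean was 4.08, below the 5.95 of bins with 11 to 20. Even so, 21 of the 52 held no POLR1A peak. The median of the 52 bins was 1, as with 1 to 2, 3 to 5 and 6 to 10 H3K9me3 peaks, and it was 0 with 11 to 20. The 52 bins held 163 POLR1A peaks, of which 33 lay in 1 bin, at 49 to 50 Mb on chromosome 4. The share of POLR1A peaks on H3K9me3 was 5.75%, 9.06%, 17.5%, 31.9% and 69.3% (interval 61.6 to 76.3) in these 5 classes. A denser list gives more places to overlap, and how much of the gradient this accounts for was not tested.

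**Figure D1:**
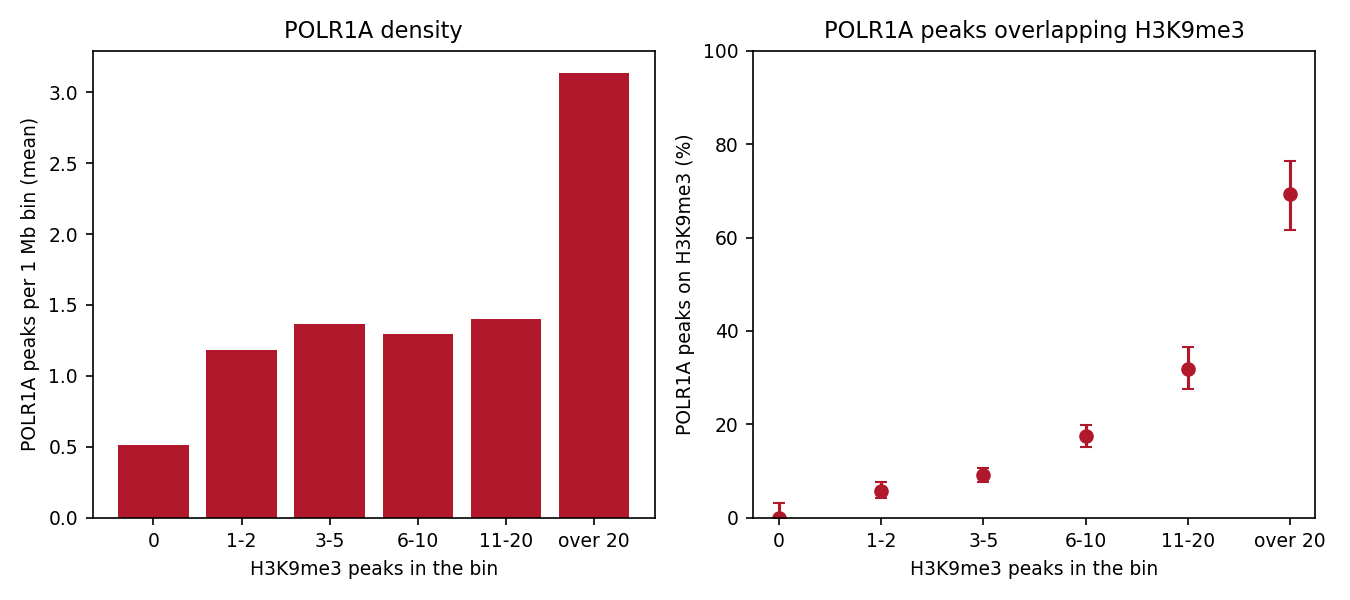
POLR1A against the number of H3K9me3 peaks in the same 1 Mb bin: mean POLR1A peaks per bin (bars, left) and percent of POLR1A peaks overlapping H3K9me3 (points with exact 95% intervals, right). The mean stays between 1.18 and 1.40 from 1 to 20 H3K9me3 peaks and is 3.13 above 20, while the overlap is 0 by definition in the first class and 69.3% in the last.

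A small set of bins held many of the shared peaks. The 8 bins with the most of them held 118 POLR1A peaks, 3.095% of the list, of which 106 (89.8%) were on H3K9me3. They made up 17.8% of all POLR1A peaks on H3K9me3. Outside these bins 489 of 3694 POLR1A peaks (13.2%) overlapped H3K9me3. POLR2A lay on 28.8% and H3K4me3 on 11.02% of the POLR1A peaks in the 8 bins, and their median POLR1A fold enrichment was 6.08. Of the bins, 7 touched the 2 Mb margin of the longest gene-free interval of their chromosome, which was used as a stand-in for the centromere.

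The bin at 49 to 50 Mb on chromosome 4 came first, with 32 of its 33 POLR1A peaks on H3K9me3 and 41 H3K9me3 peaks. Protein-coding genes with LOC symbols were not listed for bins. The single one listed for this bin is CWH43, which acts in remodelling of lipid anchors of membrane proteins. Over all bins of chromosome 4 Pearson r was 0.49 and the Spearman correlation was -0.01. On chromosome 10 at 41 to 42 Mb, 13 of 14 POLR1A peaks were on H3K9me3, and at 49 to 50 Mb on chromosome 5 it was 11 of 14. Neither of these bins holds an annotated gene. On chromosome 1 at 143 to 144 Mb all 11 POLR1A peaks were on H3K9me3, in a bin with H3-7 and FAM72C. On chromosome 17 the bin at 21 to 22 Mb, with USP22, MAP2K3, KCNJ12 and KCNJ18, had 10 of 15. The bin at 26 to 27 Mb on that chromosome, with no listed protein-coding gene, had 10 of 10. The bin at 34 to 35 Mb on chromosome 16 had 8 of 8. Chromosome 20 at 31 to 32 Mb lay outside the margin of its gene-free interval. It had 11 of 13 POLR1A peaks on H3K9me3 and 28 POLR2A peaks. It holds the beta-defensin genes DEFB115 to DEFB124, HM13, which encodes signal peptide peptidase, and ID1, an inhibitor of DNA-binding factors. The assignment of reads from repeated sequence is not described in the sources used, and its part in these counts was not tested.

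H3K9me3 of like density also occurred without POLR1A. At 63 to 64 Mb on chromosome 7, which holds the zinc finger gene ZNF722, there were 33 H3K9me3 peaks and no POLR1A peak. The bin at 27 to 28 Mb on chromosome 15 had 29, over GABRG3, a GABA receptor subunit gene, and OCA2, a pigmentation gene. Near the start of the assembled sequence of chromosome 22, at 15 to 16 Mb, a bin with OR11H1 and POTEH had 29. The other 5 bins had 24 to 28 H3K9me3 peaks: SALL3 on chromosome 18, CDH4 and TAF4 on chromosome 20, TP53TG3 and TP53TG3D on chromosome 16, and bins without a listed protein-coding gene on chromosomes 2 and 4. POLR2A was at 0 to 2 peaks in each of the 8. The bin at 15 to 16 Mb on chromosome 22 was the one of these 8 inside a gene-free margin.

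The 8 leading POLR1A bins without H3K9me3 held 18 to 135 annotated genes each, against 7 to 64 in the bins just described. At 156 to 157 Mb on chromosome 1 there were 6 POLR1A, 32 POLR2A and 34 H3K4me3 peaks, in a bin with LMNA, which encodes the A-type lamins, SSR2 and LAMTOR2. At 22 to 23 Mb on chromosome 14 there were 6 POLR1A and 11 POLR2A peaks, in a bin with PRMT5, an arginine methyltransferase gene, DAD1 and MRPL52. The bin at 64 to 65 Mb on chromosome 14, with SYNE2, MTHFD1 and HSPA2, had 5 POLR1A peaks. The bin at 60 to 61 Mb on chromosome 15, with ANXA2, ICE2 and RORA, had 4. The other 4 of these 8 bins had 3 each, among them the bin of RCC1 and TAF12 on chromosome 1.

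Chromosomes differed in how often POLR1A lay on H3K9me3. The share was highest on chromosome 21, with 28 of 58 (48.3%, interval 35.0 to 61.8), followed by chromosome 4 with 48 of 171 (28.1%), chromosome 17 with 66 of 268 (24.6%) and chromosome 20 with 29 of 118 (24.6%). It was lowest on X with 3 of 53 (5.66%), chromosome 15 with 5 of 85 (5.88%), chromosome 3 with 15 of 193 (7.77%) and chromosome 22 with 7 of 89 (7.87%). Outside the 8 bins the shares were 11.6% on chromosome 4, 18.9% on chromosome 17 and 17.1% on chromosome 20. On chromosome 21, 20 of the 24 POLR1A peaks up to the end of the gene-free interval were on H3K9me3, against 8 of the 34 beyond it. Chromosome 2 had 44 of 243 (18.1%), of which 4 lay near an end or a gene-free interval. The gene-free interval is a stand-in, so the others are not shown to lie away from the centromere.

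**Figure D2:**
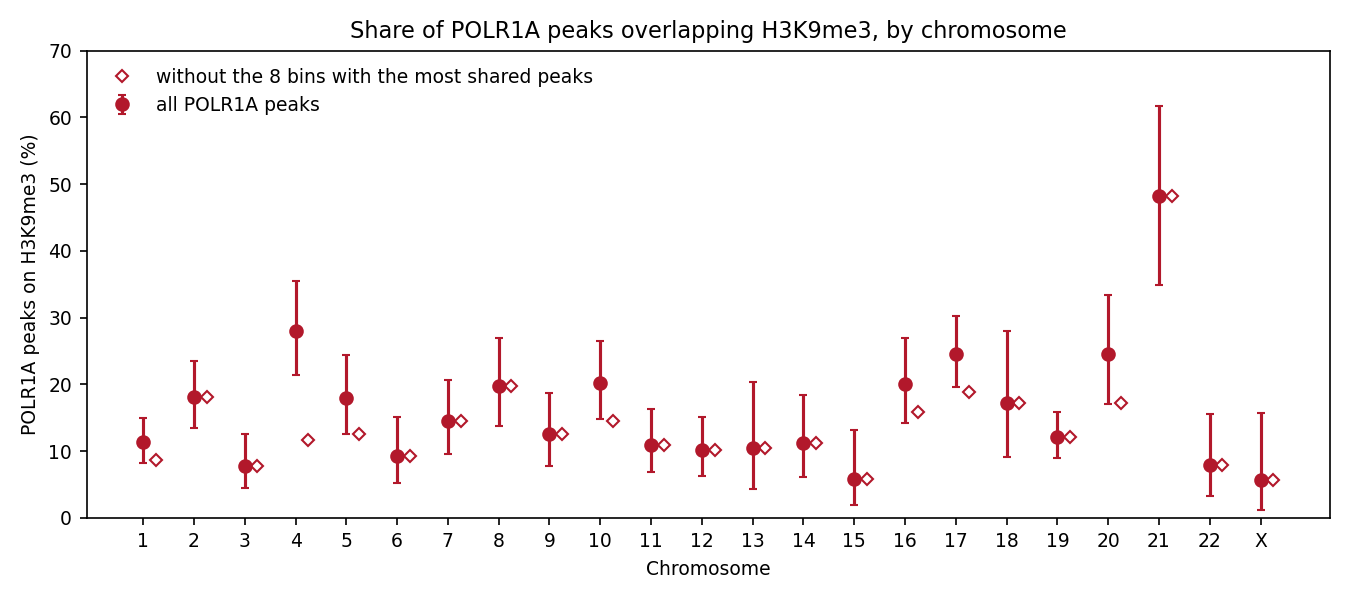
Percent of POLR1A peaks overlapping H3K9me3 on each chromosome, with exact 95% intervals (filled points), and the same without the 8 bins with the most shared peaks (open points). Chromosome 21 is highest at 48.3%, and chromosome 4 is 28.1% with the 8 bins and 11.6% without them.

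Peak density per chromosome gave another view of the same contrast. Chromosome 19 had the highest densities of both lists, 6.20 POLR1A and 8.49 H3K9me3 peaks per Mb. Yet 44 of its 363 POLR1A peaks (12.1%) were on H3K9me3, below the 15.6% of the whole list, and the Spearman correlation over its bins was -0.13. Over the 23 chromosomes the densities had a Spearman correlation of 0.30 and an r of 0.55.

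Toward the ends of chromosomes POLR1A peaks were denser. The number per Mb was 5.52 in the last 1 Mb, 3.07 at 1 to 2 Mb, 1.99 at 2 to 5 Mb, 1.63 at 5 to 10 Mb, 1.38 at 10 to 20 Mb and 1.04 farther in. H3K9me3 had 10.3, 8.91, 9.36, 6.20, 4.83 and 5.18 peaks per Mb in the same classes. POLR2A had 15.7, 13.4, 9.83, 8.10, 7.71 and 5.82, so all 3 lists were densest in the last 1 Mb. Within 2 Mb of an end lay 10.4% of POLR1A peaks (395), 5.38% of H3K9me3 peaks (883) and 6.71% of POLR2A peaks. An end was taken as the outermost base of any peak or annotated gene, since chromosome lengths were not used here. The first such base of chromosomes 13, 14, 15, 21 and 22 counted as an end too, and it need not be a chromosome tip. Peaks near it were counted as near an end, whatever their distance from a gene-free interval. Stretches without any peak count toward the lengths. A peak could therefore set the end it is counted at. Ends at the outermost gene were tried for the shares within 2 Mb and not for the outer 20 kb.

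The overlap did not change evenly with distance. The share of POLR1A peaks on H3K9me3 was 33.5% (interval 27.7 to 39.6) in the last 1 Mb, 18.4% at 1 to 2 Mb, 21.5% at 2 to 5 Mb, 10.1% at 5 to 10 Mb, 8.99% at 10 to 20 Mb and 15.5% farther in. Inside the last 1 Mb it was 66.7% in the outer 20 kb (24 of 36, interval 49.0 to 81.4), 45.5% at 20 to 100 kb (15 of 33), 27.4% at 100 to 500 kb and 22.8% at 500 to 1000 kb. In the outer 20 kb there were more POLR1A than H3K9me3 peaks, 36 and 31, although the H3K9me3 list is the longer one. These counts and shares include the starts of chromosomes 13, 14, 15, 21 and 22 as ends.

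**Figure D3:**
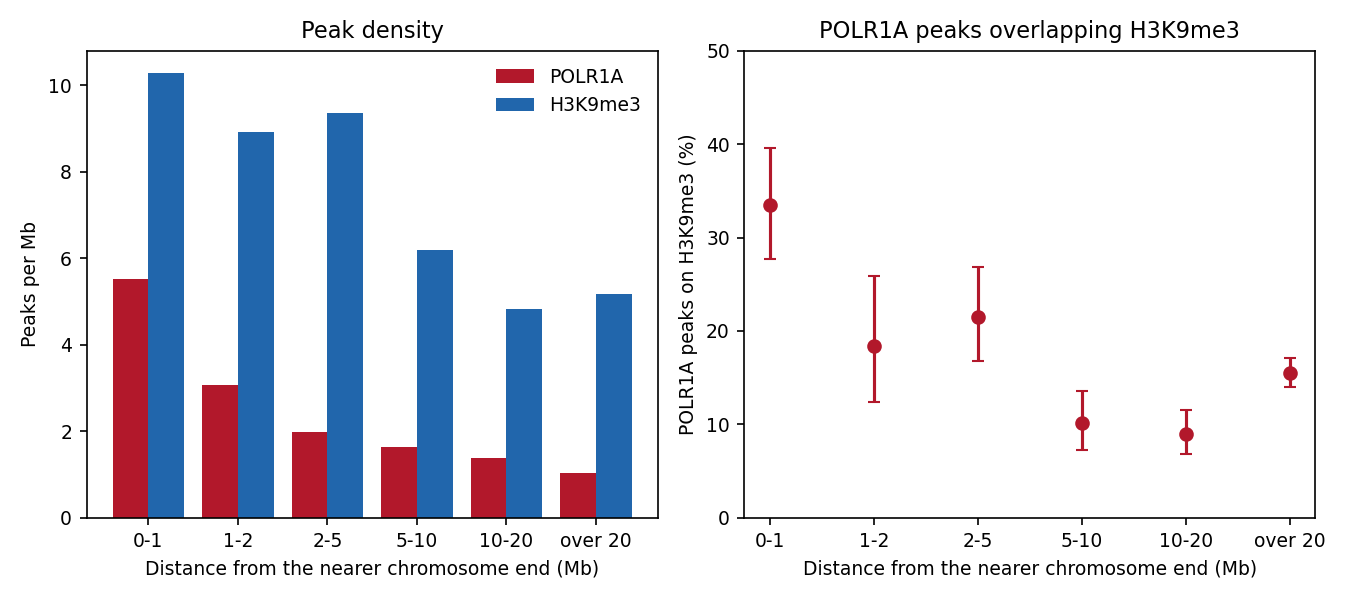
Peaks per Mb of POLR1A and H3K9me3 (bars, left) and percent of POLR1A peaks overlapping H3K9me3 with exact 95% intervals (points, right), by distance from the nearer chromosome end. POLR1A density is 5.52 per Mb in the last 1 Mb and 1.04 beyond 20 Mb, and the overlap is 33.5% in the last 1 Mb and lowest, 8.99%, at 10 to 20 Mb. The starts of chromosomes 13, 14, 15, 21 and 22 count as ends.

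Of 41 chromosome ends, without the short arms of chromosomes 13, 14, 15, 21 and 22, 28 had a POLR1A peak in the outer 20 kb and 20 had H3K9me3. At all 20 ends with H3K9me3 a POLR1A peak overlapped it, and 0 ends had H3K9me3 without POLR1A. Since a peak of any list could set an end, these windows are not independent of the peaks counted in them. POLR1A without H3K9me3 was found at 8 ends, and neither at 13. POLR2A was also at 28 ends and H3K4me3 at 12. The highest POLR1A fold enrichment at an end had a median of 26.1 over the 28 ends (3.40 to 42.4), against 5.44 over the whole list. For H3K9me3 the median over 20 ends was 11.3 (5.55 to 25.5).

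Most of the strongest shared peaks lay near such ends. The end of the long arm of chromosome 10, beyond the pseudogene RPL23AP60, had the highest POLR1A fold enrichment of the list, 42.4, with H3K9me3 at 25.5 and summits 6 bp apart. The peak spans chr10:133787106-133787506. At the end of the long arm of chromosome 22, beyond RPL23AP82, POLR1A was 40.0 and H3K9me3 24.1, with summits 13 bp apart. The short arm of chromosome 7 had 37.9 and 10.1, and that of chromosome 12, near DDX11L8, had 35.9 and 18.0. The ends of 1q (33.0 and 18.3), 4p (31.8 and 10.8) and 18p (31.3 and 17.4) followed, with summits 49, 45 and 11 bp apart. RPL23AP and DDX11L are pseudogene families with copies at many chromosome ends, so reads there may be shared between ends. All 10 of the strongest POLR1A peaks on H3K9me3 also lay on POLR2A, at fold enrichments of 31.8 to 53.1.

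The 8 ends with POLR1A and no H3K9me3 differed widely in strength. POLR1A was high at 15q near DDX11L9 (37.0), 10p (33.1), 17q near RPL23AP87 (32.8), 18q (20.1) and 19q (15.7), all of which had POLR2A as well. It was low at Xp (6.26), 6q (3.58) and 6p (3.40), which had no POLR2A peak. At 15q, 10p and 17q the nearest H3K9me3 summit was 87545, 85932 and 169525 bp away. Where H3K9me3 was present at an end its POLR1A values overlapped those of the ends without it, 7.33 to 42.4 against 3.40 to 37.0.

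Away from the ends, the margins of gene-free intervals had the highest share. Of POLR1A peaks within 2 Mb of a gene-free interval, 62.4% (141 of 226, interval 55.7 to 68.7) were on H3K9me3, against 28.1% (111 of 395) near chromosome ends and 10.7% (343 of 3191, interval 9.69 to 11.9) elsewhere. Inside the gene-free intervals themselves it was 74.6% (88 of 118). The H3K9me3 peaks of these places overlapped POLR1A in 10.0%, 11.9% and 2.34% of cases, and in 19.1% (78 of 409) inside gene-free intervals. Seen from the peaks, 18.7% of POLR1A peaks on H3K9me3 lay near an end and 23.7% near a gene-free interval, against 8.83% and 2.64% of those off H3K9me3. The larger number of shared peaks, 343 (57.6%), was in neither margin.

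The margins also differed in company. Near gene-free intervals, 32.6% of POLR1A peaks on H3K9me3 carried POLR2A and 12.8% H3K4me3. Near ends it was 64.0% and 31.5%, and elsewhere 74.1% and 58.3%. Among peaks off H3K9me3 elsewhere it was 75.1% and 71.8%. Outside both margins, POLR1A peaks on and off H3K9me3 differed by little in POLR2A and by more in H3K4me3.

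Shared peaks outside both margins included several strong ones, listed here by POLR1A value after the data were seen. The strongest, at 26.96 with H3K9me3 at 11.2, lay at LOC124907874 and DDX11L2 (chr2:113602929-113603576), which is known as the site where ancestral chromosomes fused to form chromosome 2 and left telomere repeats inside it. On chromosome 1, 13557 bp from ACO2P2, the values were 21.5 and 19.8, with summits 5 bp apart. In COL23A1, a transmembrane collagen gene on chromosome 5, they were 21.3 and 21.6, with summits 23 bp apart. The pseudogenes MTCO1P40 (16.6 and 13.1) and DUX4L26 (14.6 and 21.1) had neither POLR2A nor H3K4me3. LOC124904138 on chromosome 17 had 20.1 and 13.3, with POLR2A at 50.1.

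Pseudogenes of mitochondrial origin recurred among the strong peaks, which was seen in the data and not planned. In or within 1 kb of the 465 that are annotated there were 15 POLR1A summits, of median fold enrichment 10.8, and 10 of these peaks (66.7%, interval 38.4 to 88.2) were on H3K9me3. The share was 15.6% in the whole POLR1A list and 42.9% in the strongest of 10 equal groups of it by fold enrichment. Near MTCYBP13 on chromosome 17 (chr17:22521207-22521750) POLR1A was 38.0 and H3K9me3 23.5, with the same summit base and POLR2A at 49.6. MTATP6P1 on chromosome 1 had POLR1A at 34.9 without H3K9me3. These copies resemble the mitochondrial genome, so the origin of reads at them is uncertain.

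Strong POLR1A peaks were also found with no H3K9me3. The highest was in TUBB8B on the short arm of chromosome 18, a tubulin gene with near-identical relatives, at 41.7 and with its nearest H3K9me3 summit 32633 bp away. RBPJL on chromosome 20, which encodes a DNA-binding factor of the pancreas, had 37.0. ST6GALNAC5 on chromosome 1, a sialyltransferase gene, had 20.7 with a weak POLR2A peak (3.71). Of the 10 strongest POLR1A peaks off H3K9me3, 6 lay within 2 Mb of a chromosome end, against 9 of the 10 strongest on H3K9me3, the other being that near MTCYBP13.

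Within overlapping pairs the summits mostly lay close together. Over the 596 pairs the median distance between the POLR1A and the H3K9me3 summit was 76.5 bp (quartiles 18 and 232), and 41.8% of pairs were within 50 bp and 57.6% within 100 bp. For the 2752 pairs of POLR1A with POLR2A the median was 61 bp and 45.1% were within 50 bp. For the 2511 pairs with H3K4me3, whose peaks are wider, it was 158 bp and 21.8%. Pairs of POLR2A with H3K9me3 had a median of 114 bp and 28.7%. The POLR1A summit came before the H3K9me3 summit in 287 pairs and after it in 298, and 11 pairs had the same summit base. Overlap itself bounds the distance by the widths, which had medians of 402 bp for POLR1A and 578 bp for H3K9me3 in these pairs.

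**Figure D4:**
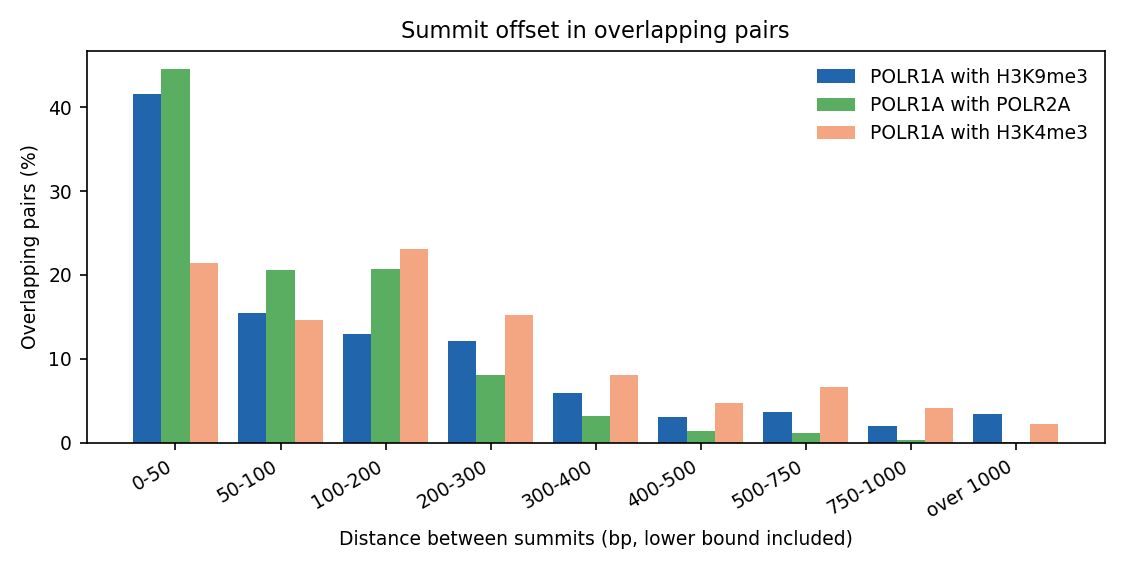
Distance between the summits of overlapping pairs, as percent of pairs, for POLR1A with H3K9me3 (596 pairs), POLR1A with POLR2A (2752 pairs) and POLR1A with H3K4me3 (2511 pairs). The first class is the fullest for H3K9me3 and POLR2A, and pairs with H3K9me3 have a longer tail than pairs with POLR2A.

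Summits were closest where POLR1A was strongest. With pairs in 4 equal groups by POLR1A fold enrichment, weakest to strongest, the median distance was 141, 88, 78 and 23 bp, and 27.5%, 34.2%, 41.6% and 63.8% were within 50 bp. The fold enrichments of the members of a pair were related, with a Spearman correlation of 0.31 over pairs. By place, the median was 34 bp near gene-free intervals, 66.5 bp near chromosome ends and 90 bp elsewhere, and it was 97 bp for the 128 pairs at an end of a protein-coding gene. By company, it was 49.5 bp for the 124 pairs with POLR2A and no H3K4me3, 78 bp for the 218 with neither, and 89.5 bp for the 248 with both.

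A minority of pairs overlapped with summits far apart. The distance exceeded 500 bp in 54 pairs, and 90.9% were within it. The strongest POLR1A peak of this kind was at the end of the short arm of chromosome 5, at 22.6. It overlapped an H3K9me3 peak of 9.58 with its summit 1074 bp away and another whose summit was 3 bp away. Others were an intergenic pair on chromosome 20 (POLR1A 11.7, H3K9me3 14.4, 539 bp), whose nearest annotated gene, FRG1DP, was 181692 bp away, and a pair in EXD3 on chromosome 9 (8.18, 7.42, 652 bp). At PRDM7, a relative of the meiotic methyltransferase gene PRDM9, POLR1A at 11.5 lay 557 bp from an H3K9me3 summit of 3.98.

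Identical borders were found in 38 pairs (6.38%, interval 4.55 to 8.65), in which both peaks had the same first base (30), the same last base (10) or both (2). The share was 9.48% for pairs of POLR1A with POLR2A, 4.22% with H3K4me3, and 5.80% for POLR2A with H3K9me3. Among pairs with the strongest POLR1A peaks it was 10.7%, against 2.68% among those with the weakest. Whether shared borders come from how reads map was not tested.

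POLR1A peaks on H3K9me3 were stronger and wider than those off it. Their median fold enrichment was 6.65 (quartiles 5.03 and 9.38) on H3K9me3 and 5.28 (4.32 and 6.71) off it, a log2 difference of 0.33 with overlapping quartiles. Median widths were 401 and 278 bp. With the POLR1A list ranked by fold enrichment and split into 10 groups, 5.76% of group 1, the weakest, 19.2% of group 9 and 42.9% (interval 37.9 to 48.1) of group 10 overlapped H3K9me3. In 4 groups by width, narrow to wide, the shares were 6.40%, 8.92%, 13.1% and 34.0%, and width and strength were not separated. In the H3K9me3 list, split likewise into 10 groups, 0.914% to 3.66% of the 9 weaker ones overlapped POLR1A, and 15.04% of the strongest group did.

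The strongest H3K9me3 peak with POLR1A lay in ACSL3, a long-chain acyl-CoA synthetase gene on chromosome 2, with POLR1A at 10.3 and H3K9me3 at 28.0. Beside TMEM216, which encodes a protein of the ciliary transition zone, they were 12.6 and 26.8 with summits 13 bp apart. On chromosome 21 at chr21:10692368-10693139, in gene-poor sequence, they were 29.8 and 25.3 with summits 1 bp apart. Near RPEL1 on chromosome 10 they were 6.28 and 25.4. Comparably strong H3K9me3 peaks had no POLR1A, among them those near LINC01022 on chromosome 7 (29.9, the highest of the list), in TCF20 on chromosome 22 (27.6), near FAM27B on chromosome 9 (23.9) and beyond SLC1A2 on chromosome 11 (20.9). TCF20 encodes a transcriptional coregulator and SLC1A2 a glutamate transporter, and their nearest POLR1A summits were 253185 and 166061 bp away.

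H3K9me3 peaks with POLR2A were those that most often held POLR1A. POLR1A overlapped 369 of the 691 H3K9me3 peaks with POLR2A (53.4%, interval 49.6 to 57.2) and 195 of the 15723 without it (1.24%, interval 1.07 to 1.43). With both POLR2A and H3K4me3 it was 249 of 365 (68.2%), and with neither 190 of 15682 (1.21%). The same held along the POLR2A list: 53.0% of POLR2A peaks on H3K9me3 and 12.3% of those off it held POLR1A. POLR2A peaks on H3K9me3 were also stronger, with medians of 7.01 on it and 5.44 off it, and strength was not held constant.

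Among the POLR1A peaks on H3K9me3, 247 (41.5%) carried POLR2A and H3K4me3, 124 (20.8%) POLR2A alone, 6 H3K4me3 alone and 218 (36.6%) neither. Off H3K9me3 the counts were 2097, 265, 159 and 696. The first group on H3K9me3 had a median fold enrichment of 7.85 and lay in the margins of ends or gene-free intervals in 20.2% of cases. Peaks with POLR2A alone had 7.61 and 54.0%, and peaks with neither 5.44 and 60.6%. Of all POLR1A peaks on H3K9me3, 21.5% lay at an end of a protein-coding gene and 59.0% in no gene, against 49.9% and 43.5% of those off it.

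POLR1A was most frequent in the densest clusters of H3K9me3 peaks. H3K9me3 peaks with no other H3K9me3 summit within 50 kb overlapped POLR1A in 3.46% of cases, those with 1 neighbour in 2.38%, with 2 to 3 in 2.55% and with 4 to 9 in 5.61%. Of the 130 peaks with 10 or more neighbours, 67 did (51.5%, interval 42.6 to 60.4). Outside the margins of ends and gene-free intervals just 25 such peaks remained, and 6 of them overlapped POLR1A (24.0%, interval 9.36 to 45.1).

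Over genes, POLR1A was found on the span (with 1 kb on each side) of 15.4% of 19821 protein-coding genes, and H3K9me3 on that of 14.4%. Both were on 677 genes, and an overlapping pair on 306 (1.54%). POLR1A was on 23.8% of genes with H3K9me3 and 14.004% of genes without it, with gene length not held constant.

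Zinc finger genes on chromosome 19, many of which encode KRAB repressors, are classic targets of H3K9me3. Of 260 such genes, 34 had POLR1A (13.1%), 115 had H3K9me3 (44.2%) and 11 had both, with an overlapping pair on 7 genes. POLR1A was on 9.57% of the genes with H3K9me3 and on 15.9% of those without it, the opposite order to that over all protein-coding genes, and the contrast between the lists was not tested. The highest POLR1A fold enrichments were at ZNF584 (9.89), ZNF444 (9.22) and ZNF574 (8.45), none of which had H3K9me3. Overlapping pairs were on ZNF565 and ZNF146, which share 1 (POLR1A 6.75, H3K9me3 6.73), on ZNF69 and ZNF700, which share another (5.28 and 4.65), on ZNF91 (5.02 and 4.93), a repressor of retrotransposons, and on ZNF699 (4.78 and 6.90), and on 1 further gene.

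The lists differed in position within these genes, as they did over genes at large. Over the 15812 protein-coding genes with a known strand, 79.8% of all, 64.2% of 2730 POLR1A summits lay within 1 kb of the 5′ end and 31.8% in the body, and 7.41% of 4263 H3K9me3 summits lay at the 5′ end and 90.7% in the body. In the 225 zinc finger genes of chromosome 19 with a known strand, 72.7% of 33 POLR1A summits were within 1 kb of the 5′ end and 21.2% in the body. Of the 145 H3K9me3 summits, 20.0% were at the 5′ end, 71.0% in the body and 8.97% at the 3′ end, and the 121 inside a gene had a median position 0.563 of the way along it. At the 5′ ends there were 24 POLR1A summits and 29 H3K9me3 summits. Genes that overlap each other share summits.

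**Figure D5:**
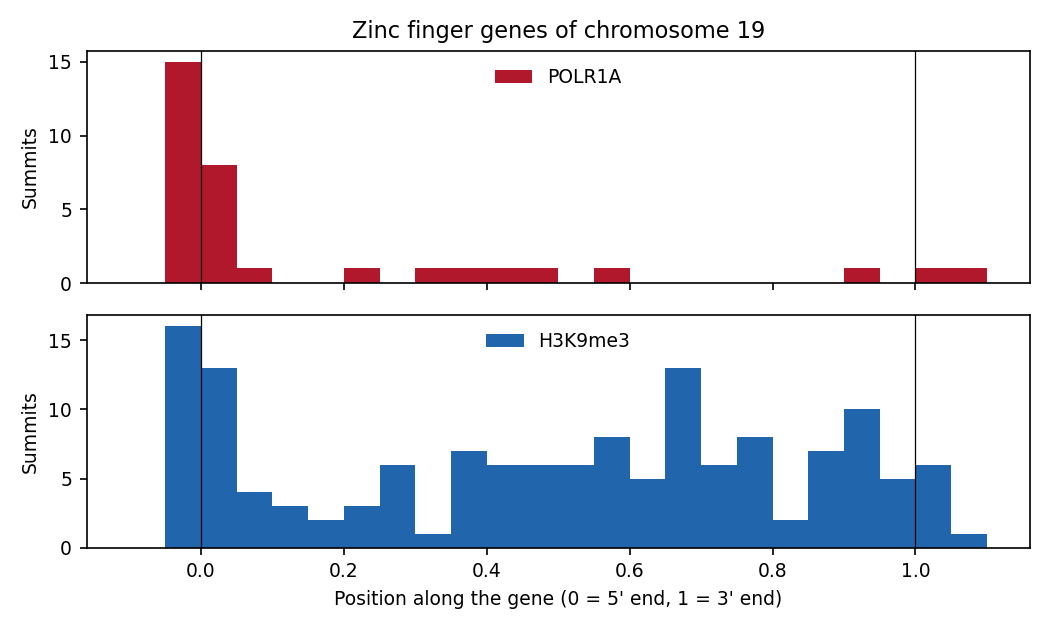
Position of POLR1A summits (upper) and H3K9me3 summits (lower) along zinc finger genes of chromosome 19, scaled from the 5′ end (0) to the 3′ end (1), with flanking summits outside the lines. POLR1A summits gather at the 5′ end, as over protein-coding genes at large (64.2%), while H3K9me3 summits have a group at the 5′ end and spread along the body, with a median position of 0.563.

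Zinc finger genes on other chromosomes shared the positions but not the order of the shares. Of 299, 41 had POLR1A and 107 had H3K9me3, and POLR1A was on 20.6% of genes with H3K9me3 and 9.90% of genes without it. Of their POLR1A summits 84.8% were at the 5′ end, against 7.79% of their H3K9me3 summits. ZNF687 (12) and ZNF143 (9.60), which encodes an activator of small nuclear RNA and other genes, were highest and had no H3K9me3. Overlapping pairs were on 6 genes, among them ZNF16 (POLR1A 8.19, H3K9me3 8.93), ZNF165 (5.91 and 6.60) and ZNF680 (4.57 and 4.40).

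Tissue-restricted and multicopy gene families were set beside all protein-coding genes, of which 15.4% had POLR1A and 14.4% H3K9me3. Of 53 clustered protocadherin genes, which encode neuronal adhesion proteins, 0 had POLR1A and 19 (35.8%) had H3K9me3, and their long spans overlap. The other families had POLR1A, and likewise H3K9me3, less often than all genes, with gene length not held constant. Median spans were 3.00 kb for olfactory receptor, 0.83 kb for keratin-associated protein and 13.7 kb for multicopy family genes. Over all protein-coding genes the median span was 24.5 kb. Of 389 olfactory receptor genes 2 had POLR1A, OR6N1 and OR3A2 at 3.61 each, 14 (3.60%) had H3K9me3 and 0 had both. Among 94 keratin-associated protein genes it was 0 and 3 (3.19%). Multicopy families of segmental duplications had POLR1A on 9 of 175 (5.14%) and H3K9me3 on 12 (6.86%), with an overlapping pair on 4: FAM72A and SRGAP2, which share theirs, DUX4, the repeated gene near the end of 4q (POLR1A 9.19, H3K9me3 7.92), and LRRC37A2 (5.10 and 4.81). Reads of these near-identical copies may be assigned to any of them.

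Histone and ribosomal protein genes, which dividing cells transcribe strongly, had POLR1A on a larger share and H3K9me3 on a smaller share of members than the 15.4% and 14.4% of all protein-coding genes. Their median spans were 0.494 and 5.01 kb, against 24.5 kb for all protein-coding genes. Gene length was not held constant, and its part in the lower H3K9me3 shares was not tested. Replication-dependent histone genes had POLR1A on 17 of 69 (24.6%) and H3K9me3 on 6 (8.70%), with no overlapping pair, and H2BC11 and H2AC11 shared the highest POLR1A peak (11.9). Cytosolic ribosomal protein genes had POLR1A on 19 of 82 (23.2%) and H3K9me3 on 2 (2.44%). Both of these 2 had an overlapping pair: RPS27A (POLR1A 8.84, H3K9me3 5.02) and RPL7 (7.81 and 6.55).

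The ribosomal RNA genes, the known template of RNA polymerase I, are mostly outside the assembled chromosomes. Of 29 annotated here, RNA45SN2 on chromosome 21, with the RNA28SN2 gene it contains, held a POLR1A peak of 11.01 overlapping an H3K9me3 peak of 12.9. The copies RNA45SN1 and RNA45SN3 held neither. Among the 5S genes, which RNA polymerase III transcribes, RNA5S17 alone had POLR1A (5.19), and 0 of the 17 had H3K9me3. With copies this alike, 1 copy with a peak cannot be told apart from reads of many copies placed on it.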

How the data were processed

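Deposited narrowPeak lists, as MACS2 writes them, were used, 1 per target and with no replicate named. Fold enrichment, a linear ratio that the authors' caller gave each peak, served to describe and rank peaks within a list. The −log10 q value and the narrowPeak score, which follows it, are as the authors deposited them. The lowest −log10 q in each list was just above that of a q of 0.1. No source used here states the caller's settings, its control, any pooling of replicates, the read depth or the handling of repeated sequence. Among tools, the submitters' processing notes list DESeq2 1.44.0, HTSeq 2.0.2, RSEM 1.3.3, deepTools 3.1.1, SAMtools 1.6, FastQC 0.12.0 and STAR, with no step assigned to any, and as builds hg38 and GRCh38. Control antibody samples were not used here.

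Peaks overlapped if they shared 1 bp. The routine was checked on simulated lists and by direct comparison of all peaks (595 by both). Intervals on shares are 95% Clopper-Pearson (exact) and speak of counting error alone, and no test was run. With 1 list per target, every difference between peaks is a description. Genes and promoter windows came from RefSeq (GRCh38.p14): 58419 genes were used, 679 on scaffolds or patches were left out, and positions within genes describe genes with a strand, which 79.8% of protein-coding genes had. This is under the 80% set as a minimum, so a check over all of them is void and the values speak of those genes alone. A chromosome end was the outermost peak or gene, and the longest gene-free interval of a chromosome stood for its centromere. The starts of chromosomes 13, 14, 15, 21 and 22 counted as ends, except in the count over 41 ends. Margins were 2 Mb wide, and a peak in both counted as near an end. Python 3.11.15, NumPy 2.4.6, pandas 2.3.3 and SciPy 1.17.1 were used.

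Named peaks were the 10 strongest POLR1A peaks on and the 10 off H3K9me3, the 6 strongest H3K9me3 peaks with and the 6 without POLR1A, the 8 leading bins of each of 3 kinds, the 5 strongest pairs within 50 bp and the 5 over 500 bp apart, and up to 3 genes per list. Genes with an overlapping pair, peaks outside both margins and mitochondrial pseudogenes were named after values were seen. The members and lists were chosen with earlier results of these data known. Alternatives were a −log10 q of at least 5, an H3K9me3 list of equal length, other overlap rules, bin widths of 5 Mb and 100 kb, bins with genes, no margins, ends at the outermost gene, and, added later, no bins with the most shared peaks.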

Additional observations from a re-analysis of the deposited data

Results flagged for a closer look

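POLR1A peaks also occurred outside the chromosomes compared, on unplaced, unlocalised, alternate and patch contigs, and these stand here because the comparisons did not use them. There were 261 such POLR1A peaks on 100 contigs, with a median fold enrichment of 6.26. Of these, 193 (73.9%, exact interval 68.2 to 79.2) overlapped H3K9me3, against 15.6% on chromosomes 1 to 22 and X. Of the 645 H3K9me3 peaks on such contigs, 176 (27.3%) overlapped POLR1A, against 3.44%. Alternate and patch contigs repeat sequence of the chromosomes, so these peaks are not all separate sites, and the part of this in the share was not tested.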

How the results depend on the processing

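Of 41 values under alternatives, 29 stayed within the spread of the value reported and 12 moved. For shares the spread was the exact interval. For the correlation over bins it was the SD over chromosomes (0.13), and for the summit distance 107 bp, taken from its quartiles. For the log2 difference it was the SD of log2 fold enrichment over POLR1A peaks on H3K9me3 (0.71). Those last spreads describe members and are wide, so staying within them does not show that a value is stable. The share of POLR1A peaks on H3K9me3 was 18.5% at a −log10 q of at least 5, 9.10% with an H3K9me3 list of equal length, 10.7% without the margins, 14.4% with summits within 500 bp and 13.2% without the 8 bins with the most shared peaks. The share of H3K9me3 peaks with POLR1A was 6.31%, 8.45% and 2.34% in the first 3 of these settings and 2.93% without the 8 bins. The share of POLR1A peaks within 2 Mb of an end was 13.2% at a −log10 q of at least 5, and that of POLR1A peaks on H3K9me3 was 25.1% with equal length and 22.7% without the 8 bins. An H3K9me3 list of equal length leaves POLR1A fewer peaks to overlap by construction, and the cause of the other moves, the rises included, was not tested. The Spearman correlation over bins lay between -0.04, without the margins, and 0.15, at a −log10 q of at least 5, so its sign is not fixed. The median summit distance lay between 30 and 90 bp, and the log2 difference in fold enrichment between 0.14 and 0.44. No paired analysis was possible because the lists name no replicate, and replicates could not be left out for the same reason. Unknown depth limits all counts of peaks, and a place without a peak is not shown to lack the protein or the mark.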
